A study of Mus musculus with 8 samples.

Results

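Interferon response genes were measured in 2 populations of bile duct cells, ST14high and ST14low, sorted from the livers of wild type C57BL/6 mice. The set of 32 genes was listed by name, and the files were searched for each symbol. Of these, 30 were found among 20377 gene symbols, and Gbp7 and Ifi27 were absent under those symbols and were not analysed here. All 30 passed the low-count filter. The sort took liver cells other than hepatocytes that bound the duct antibody MIC1-1C3, lacked CD26 and were not blood cells, and divided them by the level of ST14 (matriptase, a membrane serine protease) on their surface. Each population had 4 RNA sequencing libraries, replicates 1 to 4, made from freshly sorted cells. The labels name no treatment, and give no age for the mice. The labels do not say whether the libraries came from separate animals, and all p-values therefore measure the spread between these libraries, which may be technical.

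Interferons bind surface receptors that activate Janus kinases, and these phosphorylate STAT proteins. STAT2 joins IRF9 and a further STAT protein in a complex that binds the interferon-stimulated response element, while homodimers formed after interferon gamma bind the gamma-activated site. The genes switched on encode sensors of foreign RNA, enzymes that block translation or degrade RNA, guanylate-binding GTPases that attack intracellular pathogens, and ISG15, a ubiquitin-like protein attached to other proteins. Many of these genes are also transcribed at a low level in cells that have met no pathogen. Liver macrophages and dendritic cells express several of them strongly, and in bulk RNA fewer such cells and less RNA per cell cannot be told apart.

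The DNA before the start sites is shown for 6 members, chosen because they carry one of the sites and differ in which library was highest. The sequences are the 160 bases before the RefSeq start of the gene in build GRCm38.p6, read 5′ to 3′ on the strand of the gene, with the matched bases in capitals. Isg15 (chr4:156200819-156200978, minus strand), Oas1a (chr5:120907526-120907685, minus strand) and Ifit3 (chr19:34583369-34583528, plus strand) were highest in ST14low replicate 2. Gbp2 (chr3:142620503-142620662, plus strand) and Gbp3 (chr3:142559884-142560043, plus strand) carried the same core and were highest in ST14high replicate 1. In these 5 the capitals mark matches to the response element core (GAAA, any 2 bases, GAAA) on either strand, with overlapping matches run together. In Irf1 (chr11:53769854-53770013, plus strand) they mark the gamma-activated site TTCNNNGAA.
Isg15: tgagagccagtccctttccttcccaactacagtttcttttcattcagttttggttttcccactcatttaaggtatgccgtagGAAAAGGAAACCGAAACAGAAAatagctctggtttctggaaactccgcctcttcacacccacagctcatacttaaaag
Oas1a: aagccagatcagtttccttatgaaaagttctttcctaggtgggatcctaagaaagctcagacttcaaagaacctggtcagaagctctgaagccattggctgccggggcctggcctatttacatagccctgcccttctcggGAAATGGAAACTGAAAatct
Ifit3: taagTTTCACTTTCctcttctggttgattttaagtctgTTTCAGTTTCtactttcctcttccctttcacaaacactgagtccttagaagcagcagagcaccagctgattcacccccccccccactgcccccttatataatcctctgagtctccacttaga
Gbp2: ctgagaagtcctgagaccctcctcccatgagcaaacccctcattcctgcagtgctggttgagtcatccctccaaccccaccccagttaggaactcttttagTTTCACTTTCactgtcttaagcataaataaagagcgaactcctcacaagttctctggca
Gbp3: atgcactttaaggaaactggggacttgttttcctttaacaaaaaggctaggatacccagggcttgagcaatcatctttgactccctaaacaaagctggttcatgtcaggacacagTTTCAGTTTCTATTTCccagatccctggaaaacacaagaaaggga
Irf1: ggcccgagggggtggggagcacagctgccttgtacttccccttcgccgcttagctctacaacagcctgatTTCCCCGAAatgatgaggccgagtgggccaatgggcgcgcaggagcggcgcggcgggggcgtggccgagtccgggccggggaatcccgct

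Promoters were given for 23 of the 30 members, from 250 bases before to 50 bases after each RefSeq start. The core was found in 12 of these 23 genes (Bst2, Ddx58, Eif2ak2, Gbp2, Gbp3, Ifih1, Ifit1, Ifit3, Isg15, Oas1a, Rsad2 and Stat2), or 52.2%, against 3.99% of all 27025 genes with a promoter in the table. The longer form, the core followed by C, was found in 11 of the 23 and in 0.944% of all genes. The gamma-activated site was found in 7 of the 23 (Bst2, Eif2ak2, Ifi35, Ifit2, Irf1, Irf8 and Oas1a), or 30.4%, and in 9.55% of all genes. In Bst2 a gamma-activated site overlapped the first core match. Isg15 held 3 overlapping core matches, from position -78 to -57 relative to the start. These are matches of letters in a window and say nothing of binding.

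The libraries held 17418200, 24149334, 42769980 and 33014576 counts in ST14high replicates 1 to 4, and 23321506, 19878913, 6398307 and 31011666 counts in ST14low replicates 1 to 4. The 12 duct epithelium markers were all detected and summed to 17630.1 to 27618 CPM (counts divided by the TMM-scaled library size and set to a common total) in ST14high and 21182 to 29776 CPM in ST14low. On the second principal component (26.3% of the variance) the populations did not overlap, with ST14high at 6.2 to 64.3 and ST14low at -55.3 to -18.5. ST14high replicate 1 stood apart from the others on the first principal component (34.3% of the variance). Its 10 pancreatic acinar markers summed to 10116 CPM, and its 12 markers of mesothelium, stellate cells and fibroblasts to 3059.9 CPM. Acinar markers summed to 5.67 to 1462 CPM in the other ST14high libraries and 4.94 to 114 CPM in ST14low, and mesothelial and stromal markers to 488 to 770.0 CPM and 101 to 246 CPM in the same libraries. Macrophage and Kupffer cell markers, 12 in all, summed to 243 to 373 CPM in ST14high and 373 to 998 CPM in ST14low. Csf1r made up 161 to 236 CPM of these sums in ST14high and 199 to 312 CPM in ST14low, and the other 11 markers summed to 7.25 to 212 CPM in ST14high and 174 to 685 CPM in ST14low. Dendritic cell markers, 8 in all, summed to 10.6 to 15.6 CPM in ST14high and 10.9 to 26.2 CPM in ST14low, most of it from Zbtb46.

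Both populations expressed the interferon response genes, and none of the 30 members passed edgeR's quasi-likelihood test, adjusted over all genes. The smallest adjusted p among the members was 0.399 (Gbp2). The same test called 0% of all 13749 genes. With DESeq2's Wald test 13580 genes had an adjusted p, and 1.72% of them and 0 of the 30 members were called. At an unadjusted p under 0.05 in edgeR there were 2 members higher in ST14high (Gbp2 and Stat2), beside 6.89% of all genes, and 0 lower, beside 2.68%. In 6.42% of all genes the 4 libraries of a population lay wholly above or below the other 4, and in 0 of the 30 members did they. The members lay on either side of 0, with 14 log2 fold changes (ST14high over ST14low) above it and 16 below. Their median was -0.06, beside 0.002 over all genes tested, and without ST14low replicate 2 it was 0.07. The members' 95% intervals lay inside a 2-fold change in both directions for 17 of 30 genes. For the others the interval reached past a 2-fold change in at least 1 direction.

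**Figure D1:**
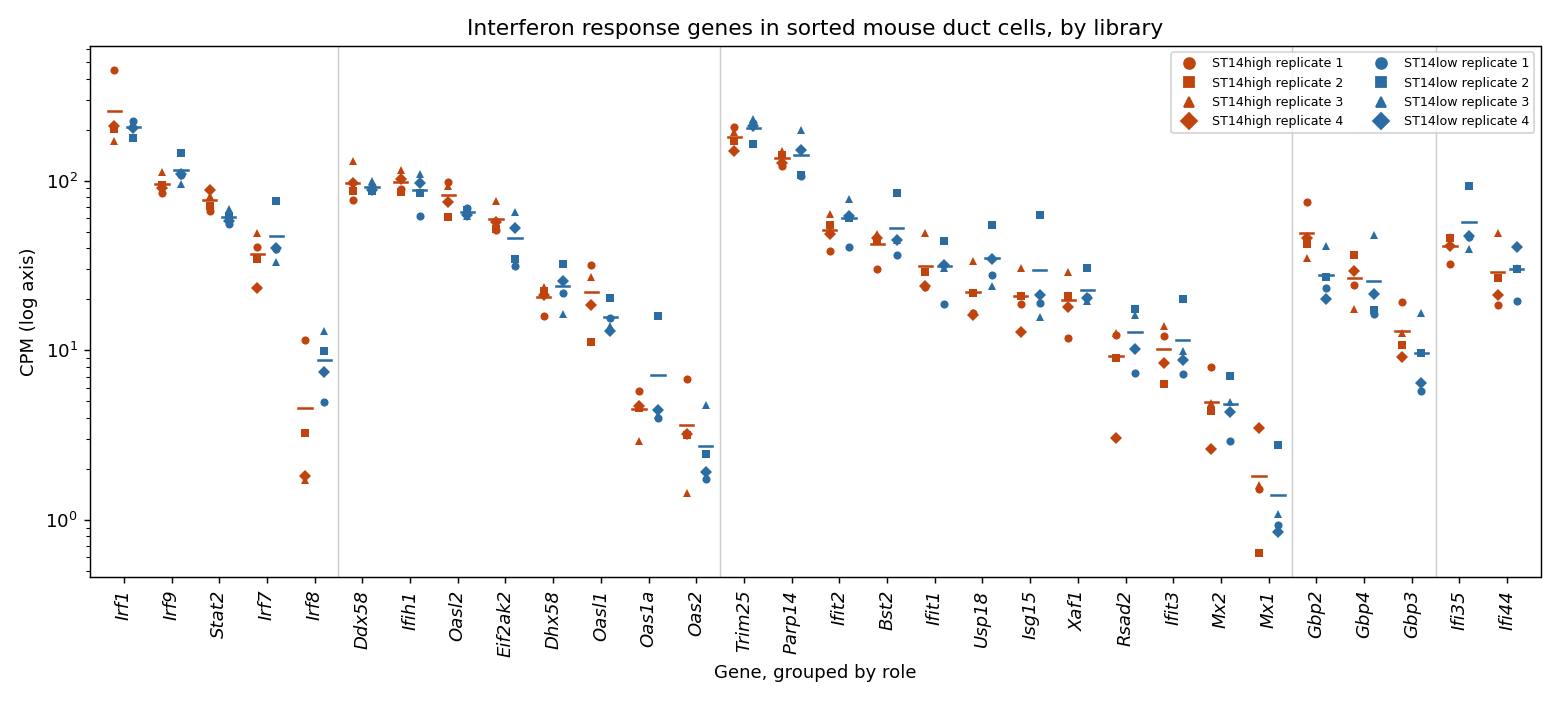
Library-size-scaled counts (CPM, log axis) of the 30 members in every library, grouped by role and ordered by mean within a role, with ST14high points left of ST14low points and a bar at each mean (n = 4 each). The populations overlap in every gene, and single libraries such as ST14low replicate 2 for Isg15 and ST14high replicate 1 for Irf1 lie away from the rest.

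Levels between genes were compared on the authors' RPKM, which divide by transcript length, averaged over the 8 libraries. Irf1 was the most abundant member at 129.9 RPKM, followed by Bst2 at 81.5, Irf9 at 48.4 and Ifi35 at 44.5 RPKM. Isg15 and Trim25 both averaged 36.9 RPKM. The 6 lowest members were Oas1a at 3.51, Rsad2 at 3.08, Irf8 at 2.65, Mx2 at 2.53, Oas2 at 0.910 and Mx1 at 0.667 RPKM. Neighbours such as Bst2 and Irf9 overlapped across libraries, where Bst2 ranged from 46.9 to 142 RPKM and Irf9 from 35.5 to 65.4 RPKM. The lowest members rest on few reads, with 335 counts for Mx1 and 537 for Oas2 over the 8 libraries. C57BL/6 mice carry a deletion in the coding exons of Mx1, and what the counted reads of this gene encode was not examined.

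Of the transcription factors, 2 of 5 had a log2 fold change above 0 (Stat2 and Irf1) and 3 below (Irf7, Irf8 and Irf9). Stat2, which couples the type I interferon receptor to transcription, was at 66.0, 70.5, 81.3 and 88.1 CPM in ST14high replicates 1 to 4, against 55.5, 62.3, 68.0 and 58.0 CPM in ST14low replicates 1 to 4. Only ST14high replicate 1 lay below the highest ST14low library, replicate 3. ST14high over ST14low this was a log2 fold change of 0.33 (SE 0.14), with an unadjusted p of 0.0386 and an adjusted p of 0.502 in edgeR. Irf9, its DNA-binding partner, averaged 95.8 ± 12.3 CPM in ST14high and 115 ± 20.9 CPM in ST14low (SD, n = 4 each), a log2 fold change of -0.26 (SE 0.16). Both partners overlapped between the populations.

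Irf1, a factor induced by interferon gamma and by inflammatory signals, was at 449.5, 203, 172 and 211 CPM in ST14high, against 225, 178, 219 and 205 CPM in ST14low. A single library was high, ST14high replicate 1, and the other 7 lay within 172 and 225 CPM. The log2 fold change of 0.32 became -0.08 without that library. Irf1 had 3 transcript rows in the tables, and the one with the most reads was used (43335 counts). Irf7, which amplifies type I interferon production, was at 40.6, 34.6, 48.9 and 23.2 CPM in ST14high and 39.8, 76.4, 33.2 and 40.1 CPM in ST14low. The highest value was again in a single library, ST14low replicate 2. Without it the log2 fold change of -0.37 was -0.04.

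Irf8, a factor of macrophages and dendritic cells as much as of the interferon response, had the widest range of the members, 7.52-fold between libraries. It was at 11.6, 3.26, 1.72 and 1.81 CPM in ST14high, against 4.94, 9.84, 13.0 and 7.44 CPM in ST14low. ST14high replicates 2 to 4 lay below every ST14low library, and ST14high replicate 1 lay among the highest. Over all 8 libraries the log2 fold change was -0.94 (SE 0.63, adjusted p = 0.648 in edgeR). Without ST14high replicate 1 it was -1.95, with an adjusted p of 0.160 in edgeR and 0.00125 in DESeq2, a fit that called 0.553% of all genes lower. The 11 macrophage and Kupffer cell markers other than Csf1r summed to 212, 72.9, 7.25 and 136 CPM in ST14high, against 220.1, 570.2, 685 and 174 CPM in ST14low. Like Irf8, they were lowest in ST14high replicate 3 and highest in ST14low replicate 3. Of these, the Kupffer cell receptor Vsig4 was at 0 counts in ST14high replicate 3. In that library 0 counts allow up to 0.0701 CPM, from counting error only. The part of these cells in the Irf8 values was not tested.

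The RNA sensors lay mostly above 0, with 6 of 8 log2 fold changes positive and a median of 0.25, yet none passed the test. With a library left out, 5 to 7 were positive and the median lay between 0.13 (without ST14high replicate 3) and 0.32 (without ST14high replicate 2). Ifih1, which encodes the double-stranded RNA sensor MDA5, was at 89.9, 85.9, 116 and 102 CPM in ST14high and 61.6, 84.7, 109 and 97.2 CPM in ST14low. Ddx58, which encodes RIG-I, averaged 97.6 ± 23.2 CPM in ST14high and 92.1 ± 5.31 CPM in ST14low (SD, n = 4 each). Both sensors were expressed in every library, and the populations overlapped. Dhx58, which encodes LGP2, a relative of both without the signalling domain, averaged 20.7 ± 3.39 CPM in ST14high and 24.0 ± 6.65 CPM in ST14low. Eif2ak2, the kinase PKR that stops translation when it binds double-stranded RNA, was at 51.4, 51.8, 75.7 and 57.4 CPM in ST14high and 31.5, 34.5, 65.4 and 52.9 CPM in ST14low. Its 2 lowest libraries were ST14low replicates 1 and 2, and the remaining libraries of both populations overlapped. Its log2 fold change was 0.36 (SE 0.25, adjusted p = 0.649 in edgeR).

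Those oligoadenylate synthetases that are active enzymes make a messenger that activates the ribonuclease RNase L. Oasl2 was at 98.8, 61.4, 93.7 and 75.4 CPM in ST14high and 68.9, 67.4, 61.7 and 62.8 CPM in ST14low. ST14high replicates 1, 3 and 4 lay above all ST14low libraries, and replicate 2 lay below them. Its log2 fold change was 0.34 (SE 0.16), with an unadjusted p of 0.0656 and an adjusted p of 0.543 in edgeR. Oasl1, which in mice represses translation of Irf7, was at 31.9, 11.3, 27.1 and 18.5 CPM in ST14high and 15.5, 20.3, 13.9 and 13.0 CPM in ST14low. ST14high held both its highest and its lowest library. Oas1a was at 5.75, 4.57, 2.90 and 4.69 CPM in ST14high and 4.01, 15.8, 4.17 and 4.47 CPM in ST14low. One library, ST14low replicate 2, stood above the other 7, and without it the log2 fold change of -0.68 was 0.08. Oas2 was low throughout, at 1.44 to 6.76 CPM in ST14high and 1.75 to 4.78 CPM in ST14low. Reads shared among near-identical Oas1 genes may be divided between them in a way the sources used here do not give.

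Of the 12 effectors and members of the ubiquitin-like system, 9 had a log2 fold change below 0 and 3 above, with a median of -0.19. Without ST14low replicate 2, 6 lay below 0 and 6 above, with a median of -0.002, and without ST14high replicate 3 the median was -0.37. Isg15 was at 18.7, 20.9, 30.7 and 12.8 CPM in ST14high and 19.0, 63.1, 15.7 and 21.1 CPM in ST14low. ST14low replicate 2 stood above the other 7 libraries, and the next highest was ST14high replicate 3. The log2 fold change of -0.52 (SE 0.45, adjusted p = 0.717 in edgeR) was 0.15 without ST14low replicate 2. Usp18, the protease that removes ISG15 from proteins and damps the type I receptor, was at 16.5, 21.7, 33.5 and 16.1 CPM in ST14high and 27.8, 54.5, 24.1 and 34.5 CPM in ST14low. ST14high replicates 1, 2 and 4 lay below every ST14low library, and ST14high replicate 3 lay among them. With all libraries the log2 fold change was -0.68 (SE 0.31), with an unadjusted p of 0.0535 and an adjusted p of 0.518 in edgeR. It was -0.98 without ST14high replicate 3 (adjusted p = 0.250 in edgeR) and -0.39 without ST14low replicate 2.

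The IFIT proteins bind foreign RNA ends and block its translation. Ifit1 was at 23.6, 28.8, 49.3 and 23.9 CPM in ST14high and 18.8, 44.1, 30.4 and 31.8 CPM in ST14low. ST14high replicate 3 was the highest library and ST14low replicate 1 the lowest, and the log2 fold change was 0.01, with a sign that turned under each of the other scalings. Ifit2 averaged 51.4 ± 10.6 CPM in ST14high, against 60.2 ± 15.5 CPM in ST14low, and Ifit3 averaged 10.2 ± 3.44 CPM in ST14high and 11.5 ± 5.77 CPM in ST14low (SD, n = 4 each). Ifit3 has a near-identical neighbour, and its counts are uncertain where reads could be assigned to either. The dynamin-like antiviral GTPases were scarce, with Mx1 at 0.636 to 3.47 CPM in ST14high and 0.844 to 2.77 CPM in ST14low, and Mx2 at 2.61 to 7.96 CPM in ST14high and 2.90 to 7.02 CPM in ST14low. The sign of the Mx2 change turned with upper-quartile scaling.

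Bst2, or tetherin, holds budding virus particles at the cell surface. It was at 30.1, 44.9, 48.5 and 46.1 CPM in ST14high and 36.3, 84.5, 44.7 and 45.0 CPM in ST14low, so that 5 libraries lay close together, ST14high replicate 1 and ST14low replicate 1 were lower and ST14low replicate 2 was highest. Rsad2 (viperin), which makes a chain-terminating nucleotide, averaged 9.25 ± 4.46 CPM in ST14high and 12.8 ± 4.85 CPM in ST14low. Xaf1, which antagonises the apoptosis inhibitor XIAP, averaged 19.9 ± 7.16 CPM in ST14high and 22.7 ± 5.26 CPM in ST14low. Parp14, an ADP-ribosyltransferase, averaged 135.6 ± 13.1 CPM in ST14high and 141 ± 43.7 CPM in ST14low. Trim25, the ubiquitin ligase that aids RIG-I signalling, averaged 181 ± 25.6 CPM in ST14high and 206 ± 28.6 CPM in ST14low. None of these 5 passed the test, and the populations overlapped in each.

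The log2 fold changes of the 3 guanylate-binding genes among the members were all above 0. Outside the member list, Gbp5 (1.66), Gbp11 (0.85), Gbp6 (0.42), Gbp9 (0.09) and Gbp8 (0.04) were also above 0. Gbp10 was below it, at -0.39 (SE 0.75). The change of Gbp5 had an SE of 0.59 and an adjusted p of 0.421 in edgeR. These genes outside the member list are named here after their values were seen. For the 3 members the median was 0.45. The median was 0.20 without ST14high replicate 1 and 0.83 without ST14low replicate 3, and Gbp4 was below 0 when any 1 of ST14high replicate 2 and ST14low replicates 1, 2 and 4 was left out. Gbp2 (chromosome 3, 142283626 to 142300972 in build mm9) had the smallest p of the members. It was at 74.5, 42.4, 35.0 and 46.0 CPM in ST14high and 23.1, 27.1, 41.4 and 19.9 CPM in ST14low. A single crossing kept the populations from separating, since ST14low replicate 3 lay above ST14high replicate 3. The log2 fold change was 0.84 (SE 0.29, 95% interval 0.20 to 1.47), with an unadjusted p of 0.0155 and adjusted p-values of 0.399 in edgeR and 0.189 in DESeq2. Without ST14high replicate 1 it was 0.57 (adjusted p = 0.491 in edgeR). Without ST14low replicate 3 it was 1.08 in edgeR (adjusted p = 0.327) and 1.07 in DESeq2 (adjusted p = 0.0198), a fit that called 2.07% of all genes higher in ST14high. Gbp2 responds to interferon gamma, and endothelial cells and macrophages express it too. Endothelial markers, 10 in all, summed to 1284, 244, 20.6 and 356 CPM in ST14high, and 296, 842, 1147 and 269.6 CPM in ST14low. They were highest in ST14high replicate 1 and ST14low replicate 3, the libraries in which Gbp2 was highest within each population. Between the populations the order differed, since ST14low replicate 2 had the larger endothelial sum and the lower Gbp2 compared with ST14high replicate 2. The 12 markers of mesothelium, stellate cells and fibroblasts summed to 488 to 3059.9 CPM in ST14high and 101 to 246 CPM in ST14low, without overlap and highest in ST14high replicate 1, as Gbp2 was. The part of either marker list in the result was not tested.

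Gbp3 was at 19.4, 10.7, 12.7 and 9.14 CPM in ST14high and 5.75, 9.63, 16.5 and 6.44 CPM in ST14low. It was highest within each population in the same 2 libraries as Gbp2. Its log2 fold change was 0.45 (SE 0.38, adjusted p = 0.711 in edgeR). Gbp4 was at 24.1, 36.4, 17.6 and 29.3 CPM in ST14high and 16.4, 17.3, 47.8 and 21.4 CPM in ST14low, and its log2 fold change of 0.08 was 0.55 without ST14low replicate 3. Guanylate-binding genes are similar in sequence, and reads common to several of them may be counted for any. Of the less characterised members, Ifi44 averaged 29.0 ± 14.1 CPM in ST14high, against 30.3 ± 8.71 CPM in ST14low, and Ifi35 averaged 41.5 ± 6.62 CPM in ST14high and 56.8 ± 24.7 CPM in ST14low (SD, n = 4 each). Ifi35 reached 93.5 CPM in ST14low replicate 2, and the other 7 libraries lay between 32.2 and 47.3 CPM.

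**Figure D2:**
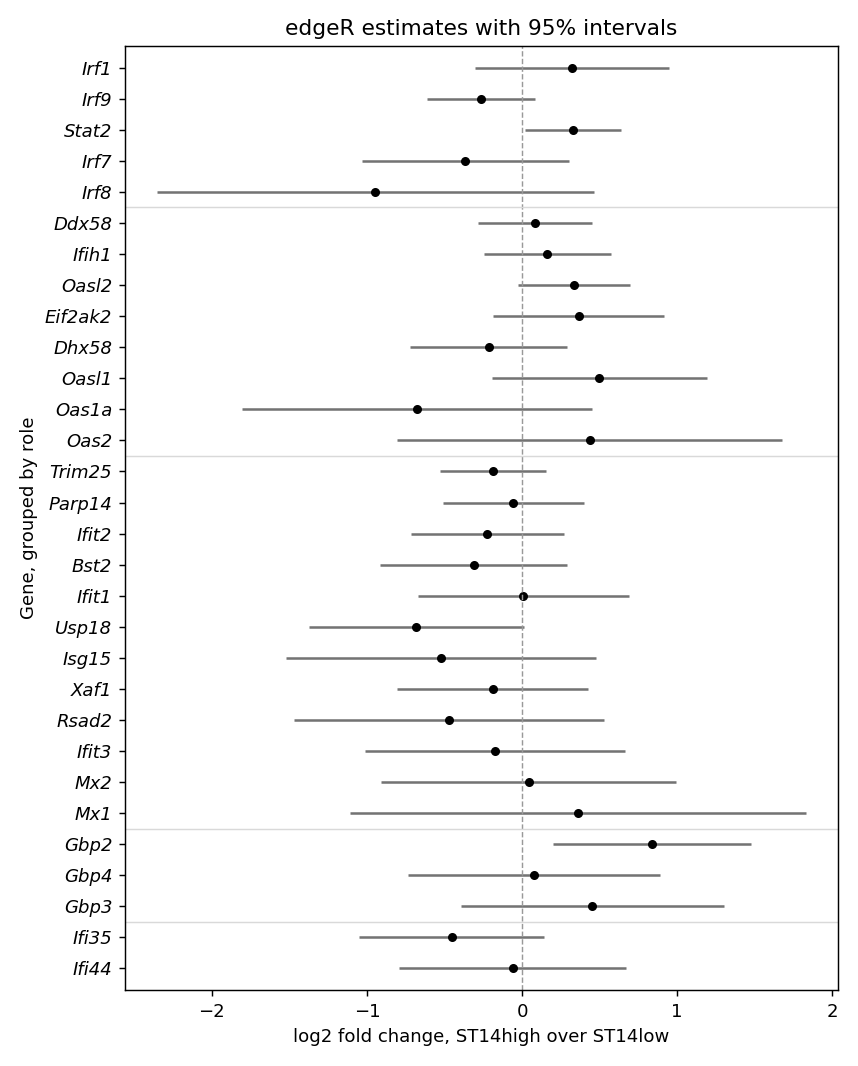
Log2 fold change of ST14high over ST14low for each member from edgeR, with its 95% interval, grouped by role. The values run from -0.94 (Irf8) to 0.84 (Gbp2), and 2 of the 30 intervals, those of Gbp2 and Stat2, leave out 0.

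ST14low replicate 2 was the highest of the 8 libraries for 11 members, or 36.7% of them, beside 23.0% of all genes tested. These were Irf7, Irf9, Isg15, Ifit3, Dhx58, Oas1a, Usp18, Rsad2, Bst2, Ifi35 and Xaf1. ST14high replicate 1 was highest for 7 members (23.3%, beside 23.0% of all genes), and ST14high replicate 3 and ST14low replicate 3 for 5 each. ST14low replicate 2 was lowest for 0 members, beside 22.2% of all genes, and so was ST14low replicate 3, beside 12.5%. The response element core was found in 5 of the 9 members highest in ST14low replicate 2 that had a promoter in the table, and in 7 of the 14 others.

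**Figure D3:**
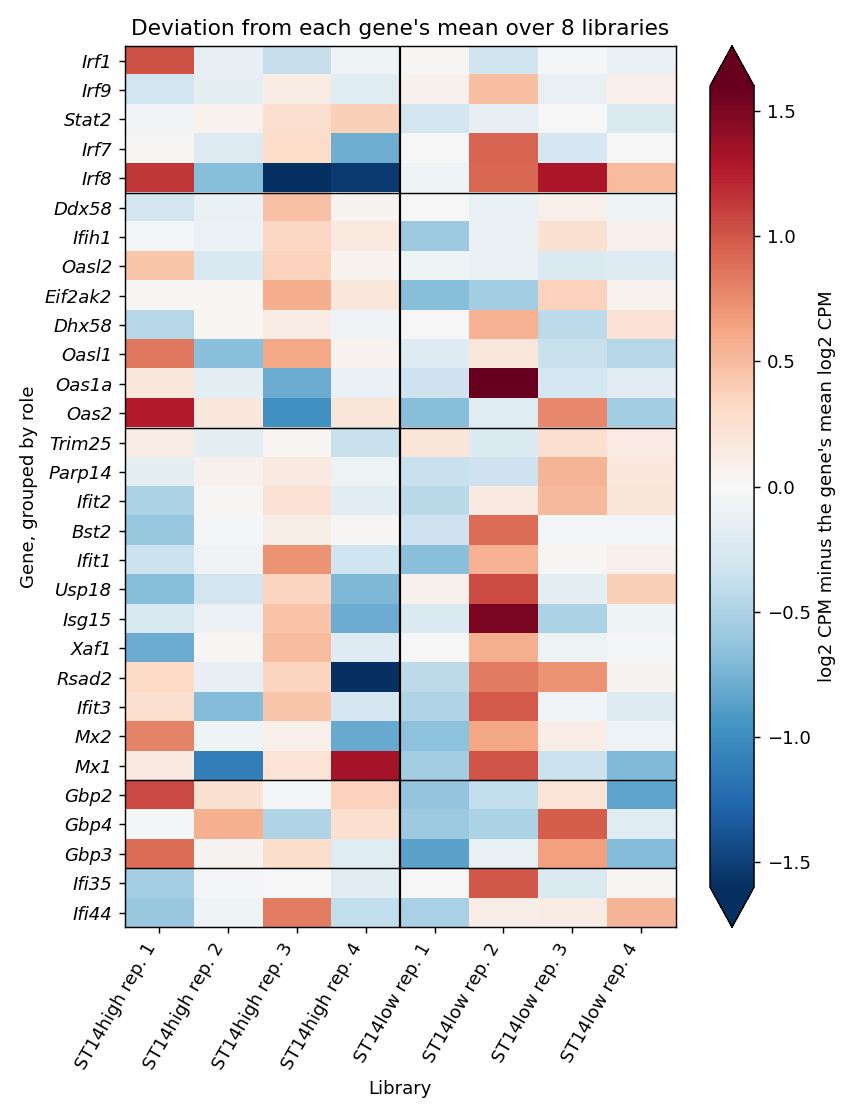
Deviation of each member's log2 CPM from its mean over the 8 libraries, with ST14high libraries left of ST14low libraries. ST14low replicate 2 holds the highest value for 11 of the 30 members and, like ST14low replicate 3, the lowest for 0.

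A level per library was taken as the median over members of log2 CPM (prior count 2) minus each member's mean over the 8 libraries. It was -0.002, -0.08, 0.24 and -0.14 in ST14high replicates 1 to 4, and -0.33, 0.33, 0.01 and -0.02 in ST14low replicates 1 to 4. The lowest and the highest library were both ST14low, and the means of the populations differed by 0.006, against a spread of 0.22 between replicates. Over the effectors alone it was -0.21, -0.08, 0.28 and -0.29 in ST14high, and -0.39, 0.71, -0.002 and 0.01 in ST14low. ST14low replicate 2 again stood highest and ST14high replicate 3 next. Over the sensors it was 0.10, -0.10, 0.35 and 0.05 in ST14high, and -0.26, -0.10, -0.08 and -0.13 in ST14low. There ST14high replicate 3 stood highest, and ST14low replicate 2 did not stand out. With the mean over sensors in place of the median, ST14low replicate 2 was at 0.16. The guanylate-binding genes followed another order, at 0.89, 0.25, -0.03 and 0.26 in ST14high, and -0.62, -0.40, 0.66 and -0.69 in ST14low. Macrophage markers other than Csf1r summed to 7.25 CPM in ST14high replicate 3, the library with the second highest level and the lowest such sum, and to 570.2 CPM in ST14low replicate 2. In ST14high replicate 3 the Kupffer cell markers Vsig4 and Timd4 had 0 counts. Lymphocyte and pan-leukocyte markers, 12 in all, summed to 3.64 to 20.0 CPM in ST14high and 14.4 to 43.1 CPM in ST14low, and neutrophil markers, 7 in the tables, to 0 to 62.3 CPM and 4.05 to 6.13 CPM in the same populations. Of the neutrophil sum, Ltf alone gave 58.5 CPM in ST14high replicate 1 and 29.1 CPM in ST14high replicate 2. Hepatocyte markers, 10 in all, summed to 4847 to 12298 CPM in ST14high and 7635 to 14289 CPM in ST14low. Their sum was highest in ST14low replicate 2, as the level was. Within ST14high it was highest in replicate 4, where the level was the lowest of that population, at -0.14. Alb alone gave 3930 to 10271 CPM of these sums in ST14high and 5878 to 11559 CPM in ST14low. The part of blood cells and of hepatocyte RNA in the library levels was not tested.

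**Figure D4:**
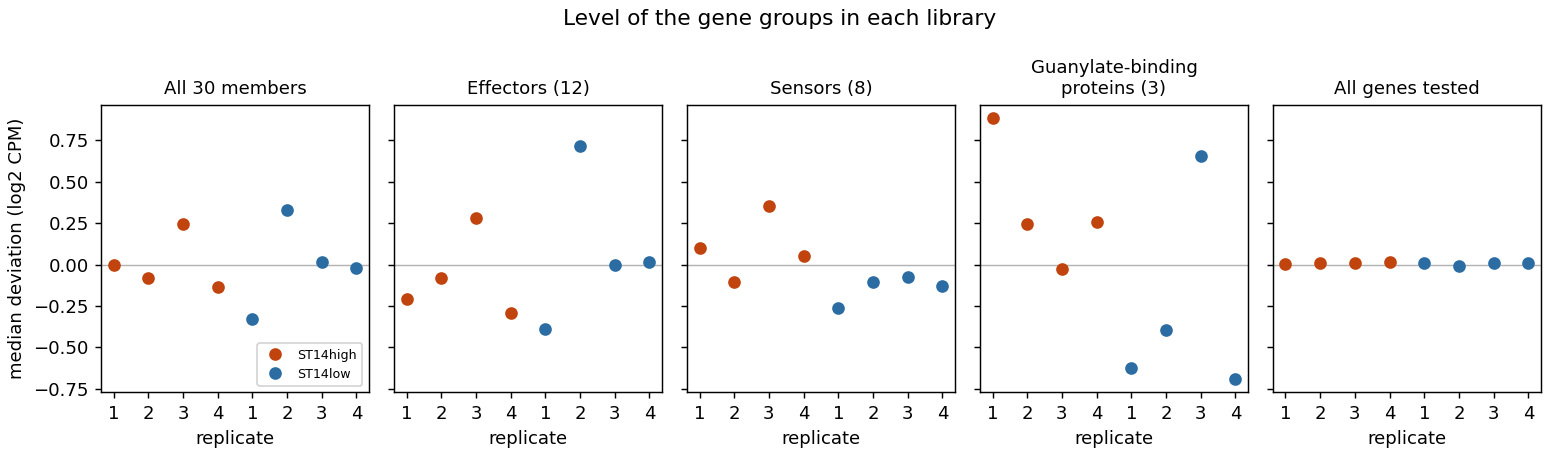
Median over members of the deviation in log2 CPM in each library, for all 30 members and by role, with ST14high left of ST14low. For all members the libraries span -0.33 (ST14low replicate 1) to 0.33 (ST14low replicate 2), and the ST14high libraries lie between -0.14 and 0.24.

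The rest of the pathway was read from lists of 116 further symbols, of which 98 passed the filter. Of these, 43 log2 fold changes were above 0 and 55 below, with a median of -0.06, and edgeR called 0. Among the 15 interferon genes themselves, 12 had 0 counts in all libraries, which over the 8 libraries together allows up to 0.0152 CPM from counting error only. The other 3 had few reads, with 1 count for Ifnb1, 7 for Ifng and 53 for Ifnk, and none could be tested. The receptors and Janus kinases were well expressed. Jak1, the kinase shared by all interferon receptors, averaged 217 ± 28.7 CPM in ST14high, against 237 ± 36.6 CPM in ST14low, and Ifnar1, a chain of the type I receptor, averaged 121 CPM in ST14high and 130.5 CPM in ST14low. Of these 9 genes 5 lay above 0 and 4 below, with a median of 0.05.

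Among 17 adaptors, kinases and factors of nucleic acid sensing, 8 lay above 0 and 9 below. Ikbke, a kinase that phosphorylates IRF3 and IRF7, was at 38.8, 41.9, 43.7 and 43.0 CPM in ST14high and 26.3, 31.7, 30.6 and 29.2 CPM in ST14low. All ST14high libraries lay above all ST14low libraries. The log2 fold change was 0.51, with an adjusted p of 0.257 in edgeR and 0.0279 in DESeq2. Of 11 negative regulators 7 lay above 0, and Socs3, an inhibitor of Janus kinases, averaged 196 ± 185 CPM in ST14high, against 95.8 ± 40.2 CPM in ST14low, a difference within the spread. ST14high replicate 1 held 471 CPM of Socs3, and the other 3 ST14high libraries averaged 104 ± 26.6 CPM (SD, n = 3). Of 61 other interferon-stimulated genes 23 lay above 0 and 38 below, with a median of -0.11, and at an unadjusted p under 0.05 in edgeR 2 were higher (3.28%, beside 6.89% of all genes) and 9 lower (14.8%, beside 2.68%). Slfn2, a Schlafen gene studied in mouse lymphocytes and myeloid cells, was at 1.64, 0.915, 0.425 and 1.22 CPM in ST14high and 4.22, 6.25, 5.86 and 3.06 CPM in ST14low. The populations did not overlap, and the log2 fold change was -2.21, with an adjusted p of 0.232 in edgeR and 0.00386 in DESeq2. Of the 98 further genes, 6 did not overlap between the populations (6.12%, beside 6.42% of all genes), Ikbke being higher in ST14high and Adar, Ifi47, Samhd1, Parp12 and Slfn2 lower. Ifi47, Samhd1 and Parp12 are named here after their values were seen. DESeq2 called 2 of 97 (2.06%, beside 1.72%), so both shares, which count higher and lower genes alike, were near those of all genes. The directions of the genes without overlap were divided differently. Of the 98 further genes 1 was higher in ST14high and 5 lower, beside 563 higher and 320 lower among all 13749 genes. The part of the lymphocyte and pan-leukocyte markers, whose sums are given above, in the Slfn2 values was not tested. Ly6e, the most abundant of these genes by count, averaged 1872 ± 421 CPM in ST14high and 1976 ± 270 CPM in ST14low.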

How the data were processed

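RNA of 4 ST14high and 4 ST14low libraries was sequenced. The authors deposited raw read counts and RPKM per transcript for each library, per the file headers. The submitters' processing notes name CASAVA 1.8.2, Bowtie 1.0.0 and build mm9, without roles. No source used here gives the counting program, the annotation or the use of strand, so overlapping, antisense and near-identical genes may share reads. For each of 20377 symbols the transcript with the largest summed count was kept. Genes were filtered with filterByExpr and tested on counts with edgeR 4.0.16 (TMM, quasi-likelihood, Benjamini-Hochberg over 13749 genes, threshold 0.05) in R 4.3.3. DESeq2 1.42.0 and limma 3.58.1 served as alternatives. The procedure was tested on simulated data. The deposited RPKM were used only to order levels between genes. The 95% intervals come from the edgeR fit and include the spread between libraries. Limits for 0 counts (3 counts) cover counting error only. Members and lists were chosen with earlier results of these data known. All members could be named, and of each other list those called by edgeR or DESeq2 and the 4 of highest mean. Promoter sequences are from RefSeq, build GRCm38.p6.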

Additional observations from a re-analysis of the deposited data

Results flagged for a closer look

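By chance Dixon's criterion is met in about 1 in 20 independent groups of normal values. The groups here share the same 8 libraries, so their count is not comparable with that rate. In 9 of 60 groups of 4 libraries a single library stood apart from the other 3 by this criterion. In 6 of them the library was ST14low replicate 2, at 76.4 CPM for Irf7, 63.1 CPM for Isg15, 15.8 CPM for Oas1a, 2.77 CPM for Mx1, 93.5 CPM for Ifi35 and 30.6 CPM for Xaf1, each the highest of its population. ST14high replicate 1 stood above its population at 449.5 CPM for Irf1 and 11.6 CPM for Irf8. ST14low replicate 3 stood above its population at 47.8 CPM for Gbp4.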

How the results depend on the processing

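Over 776 pairs of a member and an alternative, 774 stayed on the same side of the threshold and 0 reversed. The 2 exceptions were both in DESeq2, Irf8 without ST14high replicate 1 and Gbp2 without ST14low replicate 3, so the members' calls ranged from 0 to 1 when a library was left out. The sign of an uncalled change turned in 65 pairs, and 15 of 30 members kept theirs throughout. The members' median ranged from -0.27 without ST14high replicate 3 to 0.07 without ST14low replicate 2, and was 0.01 with limma voom. Over all genes, DESeq2 called 219 higher and 14 lower in ST14high where edgeR called 0. With a library left out, edgeR again called 0. DESeq2 then called 198, 246, 351 and 211 genes higher without ST14high replicates 1 to 4 in turn, and 146, 151, 281 and 146 without ST14low replicates 1 to 4. It called 76, 14, 16 and 11 lower, and 3, 14, 15 and 11 lower, in the same order. When ST14high replicate 1 and ST14low replicate 2 were both dropped, an alternative chosen after seeing the data, edgeR called 1 gene higher. The cause was not tested.

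With the replicate number as a block, edgeR called 2 genes higher, 0 members, and the members' median was -0.06. Same-numbered libraries had deviations correlated at 0.05, 0.05, -0.12 and 0.005 across genes, and not every library correlated best with its own number, so the numbers were not taken as pairs.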
